A study of Mus musculus with 79 samples.

Results

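The RNA of 10 genes that encode lipases, or proteins acting directly on a lipase, was followed across 79 libraries from 51 mice. The genes were taken by symbol and comprised Pnpla2 with its regulators G0s2, Abhd5 and Hilpda, and the lipase genes Lipe, Mgll, Ces1f, Ces1d, Pnpla3 and Lipa. All 10 were found among the 39063 genes with an identifier. All 10 were also among the 14873 genes tested, for which the 79 libraries averaged 0.4 TPM or more (TPM gives a transcript level with gene length and library size taken into account).

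Mice were adult, given as 4 to 5 months old in the series' description and 4 to 6 months in the paper's figure legends. For its insulin pellet experiment in WT males the paper's legend gives 5 to 6 months. They were housed singly and pair-fed after surgery, and received PBS or leptin at 100 ng per h into a brain ventricle (ICV) for 9 days. They were BMAd-Pnpla2+/+ (WT) or BMAd-Pnpla2-/- (cKO), on a mixed SJLxC57BL6 background, the cKO mice lacking Pnpla2 in bone marrow adipocytes and keeping it in other cells. The recombinase that deletes the gene and its promoter are not given in the sources used here. Caudal vertebrae (CV), whose marrow holds stable fat (cBMAT), came from WT females (5 with ICV PBS and 5 with ICV leptin), WT males (5 and 8), cKO females (4 and 4) and cKO males (5 and 4). CV were also taken from 11 WT males that had subcutaneous insulin for the same 9 days, 5 given ICV PBS and 6 given ICV leptin. Lumbar vertebrae (LV), taken by the study as a site without fat, came from the 18 females, and inguinal white adipose tissue (iWAT) came from the 10 WT females. Mice in which a pump or surgery failure left leptin without effect had been removed by the study. A library held all cells of a piece of tissue, so fewer cells of a type and less RNA per cell cannot be told apart.

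Libraries held 16100377 to 19364106 counts in CV, 28717516 to 29757254 in LV and 17638318 to 19100698 in iWAT. The summed TPM of 8 adipocyte markers (Adipoq, Plin1, Cidec, Fabp4, Cfd, Retn, Pck1 and Thrsp) was 71419 to 89482 in iWAT, 8660 to 12387 in CV and 275 to 553 in LV of WT females with PBS, with all 8 above 0 at each site. CV also held RNA of other cells. The 7 skeletal muscle markers summed to 17359 to 39441 TPM in the CV of these 5 females, and to 31 to 2792 TPM in their iWAT. With leptin, the adipocyte sum of CV was 5072 to 10029 TPM in WT females, and it was 6025 to 10285 TPM with PBS and 5555 to 8713 TPM with leptin in WT males, so the groups overlapped. Of its 8 markers, 2 were lower with leptin by the test in each sex. Plin1, which coats the lipid droplet, moved more than the sum, with medians of 251 and 81.9 TPM in WT females and of 163.2 and 70.4 TPM in WT males. The skeletal muscle sum was 13726 to 34320 TPM with leptin in WT females, and 39380 to 47851 TPM with PBS and 20252 to 40250 TPM with leptin in WT males. The sum of 6 erythroid markers was 347 to 1200 TPM with PBS and 726 to 3550 TPM with leptin in WT females, and 200 to 598 TPM and 579 to 1667 TPM in WT males. Other sums moved in WT females as well. The macrophage sum was 357 to 497 TPM with PBS and 579 to 768 TPM with leptin, without overlap, the osteoblast and osteocyte sum 2308 to 6281 and 5161 to 15859 TPM, and the cartilage sum 1245 to 1441 and 702 to 1293 TPM. In WT males these 3 sums overlapped between treatments. The part of these shifts in the results below was not tested.

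Lipolysis empties the lipid droplet stepwise. Adipose triglyceride lipase (ATGL, the product of Pnpla2) takes the first fatty acid from a triglyceride, hormone-sensitive lipase (HSL, encoded by Lipe) acts mainly on the diglyceride, and monoglyceride lipase (Mgll) releases the last fatty acid and glycerol. ATGL is activated by CGI-58, encoded by Abhd5, and is inhibited by the small proteins G0S2 and HILPDA. In fat cells, catecholamines raise cAMP and activate protein kinase A, which acts on HSL and on perilipin 1 at the droplet surface, and insulin restrains the pathway.

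On GRCm38.p6, Pnpla2 lies at chr7:141455188-141460743, G0s2 at chr1:193272160-193273188, Abhd5 at chr9:122351616-122381524 and Hilpda at chr6:29272488-29275449. Lipe lies at chr7:25379527-25398486 and Mgll at chr6:88724412-88828360. The carboxylesterases Ces1d (chr8:93166072-93197804) and Ces1f (chr8:93256236-93279766) are neighbours on chromosome 8, Pnpla3 lies at chr15:84167776-84189521 and Lipa at chr19:34492316-34527474. All 10 are protein-coding with 2 exons in G0s2 and Hilpda and up to 14 in Ces1d and Ces1f, and the counts are totals for a gene that do not separate exons.

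Promoter windows of 5 genes are printed here. These are the windows directly before a start of the 4 genes that fell with leptin in more than 1 fat-bearing site or sex, and that of Pnpla2, which did not pass the test in any leptin comparison. They hold the 250 bases before a RefSeq transcript start on GRCm38.p6, 5′ to 3′ on the strand of the gene. Their positions are chr1:193273189-193273438 (G0s2, minus strand), chr6:88724162-88724411 (Mgll, plus strand), chr7:25390113-25390362 (Lipe, minus strand, the second of its 2 windows), chr15:84167566-84167815 (Pnpla3, plus strand) and chr7:141454938-141455187 (Pnpla2, plus strand). The positions of Lipe and Pnpla3 given above reach upstream of the starts used for these windows. Capitals mark matches to a FOXO site (GTAAACA, or TGTTTAC on the other strand), an E-box (CACGTG) or a cAMP response element (TGACGTCA), and GC boxes (GGGCGG, or CCGCCC on the other strand) in the windows of G0s2 and Pnpla2, which hold none of these 3.
G0s2: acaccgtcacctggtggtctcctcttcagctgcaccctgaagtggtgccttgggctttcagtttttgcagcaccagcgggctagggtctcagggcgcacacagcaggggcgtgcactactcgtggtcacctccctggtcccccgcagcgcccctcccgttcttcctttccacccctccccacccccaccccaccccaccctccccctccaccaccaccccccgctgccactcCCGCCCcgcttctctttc
Mgll: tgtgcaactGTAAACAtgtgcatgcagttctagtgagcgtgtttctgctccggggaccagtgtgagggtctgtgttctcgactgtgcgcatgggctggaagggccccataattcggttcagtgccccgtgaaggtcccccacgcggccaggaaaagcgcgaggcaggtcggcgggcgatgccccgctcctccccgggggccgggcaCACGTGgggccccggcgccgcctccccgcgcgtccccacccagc
Lipe: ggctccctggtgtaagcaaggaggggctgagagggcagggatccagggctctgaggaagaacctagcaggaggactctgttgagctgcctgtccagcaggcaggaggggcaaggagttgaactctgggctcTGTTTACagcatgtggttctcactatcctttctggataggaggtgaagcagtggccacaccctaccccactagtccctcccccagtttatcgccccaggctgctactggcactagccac
Pnpla3: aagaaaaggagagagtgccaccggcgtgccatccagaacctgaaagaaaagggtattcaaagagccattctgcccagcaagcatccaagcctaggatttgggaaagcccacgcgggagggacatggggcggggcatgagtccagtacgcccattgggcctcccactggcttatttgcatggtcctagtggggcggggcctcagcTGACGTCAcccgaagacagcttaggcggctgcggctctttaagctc
Pnpla2: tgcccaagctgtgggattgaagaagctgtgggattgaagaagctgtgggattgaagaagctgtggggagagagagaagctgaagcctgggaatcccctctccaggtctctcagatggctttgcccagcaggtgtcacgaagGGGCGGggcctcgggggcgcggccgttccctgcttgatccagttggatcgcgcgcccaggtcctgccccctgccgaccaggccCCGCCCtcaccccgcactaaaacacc

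The printed window of Mgll held a FOXO match that starts 241 bases and an E-box that starts 44 bases before the transcript start. That of Lipe held a FOXO match at 119 bases and that of Pnpla3 a cAMP response element at 46 bases. Mgll and Lipe each have 2 windows, and the first of Mgll and the second of Lipe are printed. The printed window is in both genes the one with a FOXO match, and the other window of each held none. That of Mgll held a GC box and no E-box, and that of Lipe an E-box at 155 bases and GC boxes. Windows were found for 8 of the 10 genes, 11 in all. Of these 11, 2 held a FOXO match, 2 an E-box, 1 a cAMP response element and 7 a GC box. Among 32851 windows of the same length over all genes, 3.17% held the FOXO letters, 6.02% the E-box, 1.55% the cAMP response element and 32.7% the GC box. The nuclear receptor element DR1 and the glucocorticoid response element had no match in the 11 windows, and their letters were in 0.0335% and 0.00913% of all windows, with both strands searched for each motif. The matches are letters alone, and no binding was measured.

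Pnpla2, the targeted gene, was present in every cKO library, and neither it nor any other member passed the test for genotype. In WT females with PBS its level in CV was 217, 224, 261, 266 and 288 TPM, and in cKO females 131, 136, 194 and 256 TPM. In males the values were 191, 225, 228, 281 and 294 TPM in WT mice and 135, 136, 160.6, 198 and 209 TPM in cKO mice. The genotypes overlapped in both sexes, and the lowest cKO mice lay under every WT mouse. The log2 fold change of cKO against WT was -0.53 ± 0.16 (SE, adjusted p = 0.369) in females and -0.49 ± 0.20 (SE, adjusted p = 0.917) in males, where p comes, as throughout, from the quasi-likelihood test of edgeR and is adjusted by the Benjamini-Hochberg method over the 14873 genes. In LV it was -0.04, with 20.4, 20.5, 22.4, 22.9 and 30.4 TPM in WT and 17.5, 19.2, 23.3 and 25.8 TPM in cKO females. A gene was called where the adjusted p was below 0.05 and the log2 fold change was 0.5 or more in size. No member was called between genotypes in the 3 comparisons, and neither was any other gene, a background of 0%. At an unadjusted p below 0.05 there were 1476 genes in female CV, 783 in male CV and 388 in female LV, and DESeq2 called 47, 40 and 14 genes. Besides Pnpla2, the members with an unadjusted p below 0.05 were Hilpda in females (0.22 on the log2 scale, adjusted p = 0.457) and Pnpla3 in males (0.97, adjusted p = 0.554). All mice with numbers in the 5400s were cKO, so for them genotype and number series cannot be told apart.

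The sites differed widely in the level of these genes. In WT females with PBS, iWAT had the highest median TPM for 9 of the 10, and CV the highest for Hilpda. Pnpla2 was at 1066, 1253, 1276, 1785 and 1803 TPM in iWAT, and the values given above for CV and LV lie well below, with no overlap between sites. Lipe was at 854, 942, 953, 1105 and 1246 TPM in iWAT, 99.5, 135, 144, 148 and 176.8 TPM in CV and 6.69, 8.28, 8.68, 9.03 and 9.18 TPM in LV. Mgll was at 487, 497, 548, 591 and 594 TPM in iWAT, 139, 162.6, 172, 187.5 and 187.7 TPM in CV and 21.1, 22.2, 22.5, 22.8 and 23.9 TPM in LV. For each of these 3 enzymes of the lipolytic chain every iWAT library lay above every CV library, and every CV library above every LV library. The inhibitor G0s2 spanned less, with 31.8, 36.1, 36.1, 38.3 and 39.5 TPM in LV against 95.0 to 180.1 TPM in CV.

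Ces1d, Ces1f and Pnpla3 spanned the sites widely. The first of these, a carboxylesterase that hydrolyses triglycerides in liver and fat, was at 491, 641, 764, 909.6 and 1009.9 TPM in iWAT, 28.6, 30.6, 55.6, 58.3 and 60.3 TPM in CV and 1.96, 3.19, 3.46, 5.10 and 6.42 TPM in LV. Its neighbour on chromosome 8, Ces1f, ran at 67.2, 86.6, 125, 158 and 160.3 TPM in iWAT and 4.56, 5.12, 5.37, 6.63 and 6.73 TPM in CV. Pnpla3, a relative of ATGL, was at 121, 199, 307, 366 and 386 TPM in iWAT and 2.34, 3.85, 7.05, 7.11 and 15.7 TPM in CV. In LV, Ces1f and Pnpla3 were near 0, at 0.09 to 0.60 TPM from 5 to 33 counts and 0.18 to 0.41 TPM from 22 to 55 counts. Abhd5 was at 66.2 to 97.3 TPM in iWAT, 31.3 to 38.4 TPM in CV and 22.7 to 28.4 TPM in LV, and Lipa, which encodes lysosomal acid lipase, at 38.1 to 48.9 TPM, 23.7 to 34.0 TPM and 12.8 to 19.6 TPM. Hilpda was at 12.8 to 18.8 TPM in iWAT, 16.9 to 20.9 TPM in CV and 8.31 to 10.3 TPM in LV, so that the CV and iWAT values overlapped.

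**Figure D1:**
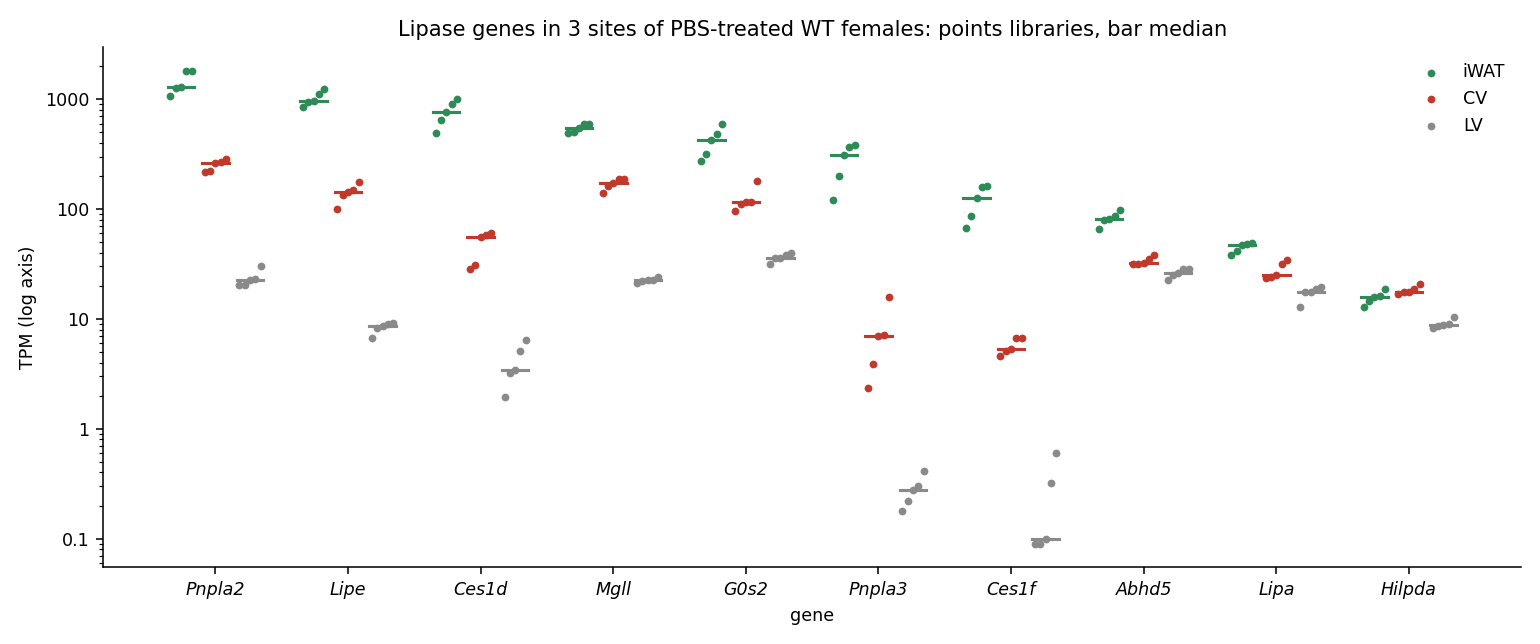
Level of the 10 genes in TPM, on a log axis, in iWAT, CV and LV of the 5 WT females with ICV PBS, with 1 point for each library and a bar at the median. For Pnpla2, Lipe, Ces1d, Mgll, G0s2, Pnpla3 and Ces1f the iWAT points lie above the CV points and the CV points above the LV points, and the Hilpda points of CV and iWAT overlap.

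Between CV and iWAT, 9 members were lower in CV, where 24.5% of all genes tested were lower and 50.5% were called in either direction. The log2 fold change of CV against iWAT was -5.39 for Pnpla3, -4.56 for Ces1f, -4.17 for Ces1d, -3.00 for Lipe, -2.68 for Pnpla2, -1.92 for G0s2, -1.84 for Mgll, -1.41 for Abhd5 and -0.86 for Lipa, with adjusted p-values of at most 2.10e-05. Only Hilpda was not called, at 0.05 with a 95% interval of -0.22 to 0.32 (adjusted p = 0.711). Between CV and LV, 66.6% of all genes were called, 34.9% higher and 31.7% lower in CV, and 8 members were called. The TPM of the sites did not overlap for all 10 members between CV and LV, as for 83% of all genes, and for 9 between CV and iWAT, as for 56.7%. Of the 8 called between CV and LV, 7 were higher in CV, at 3.64 for Pnpla3, 3.40 for Ces1f, 2.90 for Lipe, 2.44 for Ces1d, 2.32 for Pnpla2, 1.81 for Mgll and 0.62 for G0s2. Without CV PBS replicate 2, the log2 fold change of G0s2 was 0.43, under the threshold. The direction of Abhd5, Lipa and Hilpda between CV and LV turned with the scaling. By TMM-scaled counts Abhd5 was lower in CV, at -0.70 (adjusted p = 1.85e-06), Lipa was at -0.42 (adjusted p = 0.00153) and Hilpda at -0.13 (adjusted p = 0.218). On log2(TPM + 1) they were higher in CV by 0.36, 0.66 and 0.94, on a scale where the median of all genes was itself 0.87 higher in CV, against 0.02 with TMM. The 7 members higher in CV kept that direction on log2(TPM + 1) and log2(TPM + 0.1), and their differences moved with the scaling, to at most 1.73 for G0s2, 3.43 for Pnpla2 and 2.91 for Mgll. The CV libraries of these 5 mice and the LV and iWAT libraries come from the same animals, and with the mouse as a block the number of members called was 8 and 9 again.

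In WT CV with ICV leptin, the RNA of the ATGL inhibitor G0s2 and of the enzymes of the later lipolytic steps was lower and that of the carboxylesterase Ces1f was higher, whereas Pnpla2 and its activator did not pass the test. In WT females, 3 members were lower (G0s2, Lipe and Mgll) and 1 was higher (Ces1f), where 5.04% of all genes were called, 2.25% lower and 2.78% higher. In WT males, 4 were lower (G0s2, Lipe, Mgll and Pnpla3) and 1 was higher (Ces1f), where 1.75% of all genes were called, 0.914% lower and 0.834% higher. The TPM of PBS and leptin mice did not overlap for 4 members in each sex, which held for 6.56% of all genes in females and 2.19% in males. The median log2 fold change of the 10 members was -0.06 in females and 0.17 in males, beside -0.01 and 0.00 over all genes.

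Among the ATGL regulators, G0s2 fell and the others did not pass the test. In WT females G0s2 was at 95.0, 110.2, 115, 117 and 180.1 TPM with PBS and at 16.2, 25.0, 40.1, 48.0 and 90.0 TPM with leptin. In WT males it was at 71.7, 76.1, 113, 127 and 135 TPM with PBS and at 17.6 to 54.9 TPM with a median of 24.6 TPM with leptin. Every leptin mouse lay below every PBS mouse of its sex, though the highest female with leptin, at 90.0 TPM, came close to the lowest with PBS. The log2 fold change was -1.49 ± 0.41 (SE, adjusted p = 0.0465) in females and -1.92 ± 0.26 (SE, adjusted p = 0.00109) in males. The female call was close to the threshold, and it was lost in 9 of 10 fits that left out 1 mouse, with adjusted p-values up to 0.118 and log2 fold changes from -2.02 to -1.25. It was kept only without leptin replicate 2. In males it was lost with the replicate number as a block (adjusted p = 0.0732, log2 fold change -1.86), although same-numbered mice are different animals.

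Pnpla2 itself was at 209, 214, 253, 254 and 405 TPM with leptin in WT females, beside 216.6 to 288 TPM with PBS, and at 251 to 386 TPM with a median of 305 TPM in WT males, beside 190.6 to 294 TPM. The groups overlapped in both sexes, with 1 female leptin library, replicate 3, apart from the others. The 95% interval of its log2 fold change was -0.30 to 0.41 in females and 0.02 to 0.61 in males (adjusted p = 0.864 and 0.227). Abhd5, the activator, was at 31.3, 31.4, 32.5, 35.0 and 38.4 TPM with PBS and 26.9, 28.4, 29.99, 31.9 and 36.7 TPM with leptin in females. In males it was at 30.5 to 33.2 TPM with PBS and 29.6 to 37.3 TPM with leptin. The treatments overlapped in both sexes, and the 95% intervals of its log2 fold change were -0.38 to 0.04 in females and -0.09 to 0.16 in males. Hilpda, the other inhibitor, is known to be induced by hypoxia and fatty acids. It was at 16.9 to 20.9 TPM with PBS and 16.4 to 21.3 TPM with leptin in females, at a log2 fold change of 0.05 (adjusted p = 0.786). In males it was at 17.6 to 21.8 TPM with PBS, and 7 leptin mice were at 15.1 to 35.3 TPM with leptin replicate 8 at 83.2 TPM, which gave a log2 fold change of 0.54 ± 0.37 (SE, adjusted p = 0.473).

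Lipe and Mgll, which encode the enzymes after ATGL, fell in both sexes. Lipe was at 44.1, 62.8, 84.3, 84.9 and 85.0 TPM with leptin in WT females, where every PBS mouse was at 99.5 TPM or above. In WT males it was at 94.8, 95.6, 128, 138 and 169.6 TPM with PBS and at 56.4 to 88.2 TPM with a median of 72.2 TPM with leptin. The groups did not overlap in either sex, and the log2 fold change was -0.98 ± 0.21 (SE, adjusted p = 0.0200) in females and -0.88 ± 0.15 (SE, adjusted p = 0.00530) in males. The female call of Lipe was lost without PBS replicate 1, PBS replicate 2 or leptin replicate 5, at adjusted p-values of 0.0577, 0.0566 and 0.0546, and the male call with the replicate block (adjusted p = 0.0732). Mgll had the smallest adjusted p of the members in both sexes. It was at 47.4, 52.6, 55.9, 56.1 and 61.8 TPM with leptin in females, against 139 to 187.7 TPM with PBS. In males it was at 81.6, 91.2, 92.1, 104 and 136 TPM with PBS and at 40.3 to 55.5 TPM with a median of 45.4 TPM with leptin. Every leptin value lay below every PBS value of the same sex, with log2 fold changes of -1.64 ± 0.13 (SE, adjusted p = 0.000235) in females and -1.15 ± 0.12 (SE, adjusted p = 9.95e-05) in males. The exons of Lipe and Mgll overlap an antisense gene (4732471J01Rik and Gm26588), as those of Abhd5 do (A730085K08Rik). Whether strand was used in counting is not given in the sources used here. With both strands searched, Lipe shares 7.14% and Abhd5 13.64% of its stretches of 100 bases with its partner. Reads from these stretches cannot be told apart. Mgll shares 0% of such stretches with another annotated gene.

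Ces1f rose from a low level, while its neighbour Ces1d was not called. In WT females Ces1f was at 9.00, 10.3, 16.3, 17.7 and 22.9 TPM with leptin, above all PBS mice, which reached 6.73 TPM. In WT males it was at 3.96, 5.85, 6.52, 8.21 and 9.54 TPM with PBS and at 10.4 to 22.7 TPM with a median of 13.5 TPM with leptin. The log2 fold change was 1.38 ± 0.22 (SE, adjusted p = 0.00561) in females and 1.04 ± 0.22 (SE, adjusted p = 0.0229) in males, and the male call was lost without PBS replicate 1, 2 or 4, at adjusted p-values of 0.0569, 0.0664 and 0.0669. Neither gene shares a stretch of 100 bases, the read length, with another annotated gene, so reads of the 2 carboxylesterases are told apart at that length. Ces1d was at 18.8, 25.9, 40.3, 41.0 and 45.01 TPM with PBS and at 44.4 to 67.2 TPM with a median of 51.7 TPM with leptin in males, a log2 fold change of 0.59 ± 0.17 (SE, adjusted p = 0.0794) that DESeq2 called (adjusted p = 0.0175). In females it was 0.15 (adjusted p = 0.780) and took opposite signs in the mouse-number series, at -0.45 among mice of the 100s and 0.96 among those of the 600s, as differences of mean log2(TPM + 1).

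Pnpla3 was low in CV and fell with leptin in males. In WT males it was at 1.88, 2.99, 3.38, 4.69 and 5.31 TPM with PBS and at 0.40 to 2.02 TPM with a median of 0.84 TPM with leptin, with a log2 fold change of -1.79 ± 0.35 (SE, adjusted p = 0.0138). The highest leptin mouse was above the lowest PBS mouse. That call was lost without PBS replicate 2 (adjusted p = 0.0531) and with the replicate block (adjusted p = 0.136). In WT females the values were 2.34, 3.85, 7.05, 7.11 and 15.7 TPM with PBS and 1.17, 1.18, 1.39, 2.32 and 5.66 TPM with leptin, and the log2 fold change of -1.69 ± 0.60 (SE, adjusted p = 0.0999) did not pass the test, but was called with the replicate block (-1.70, adjusted p = 0.0359) and in 1 fit of all CV groups (-1.68, adjusted p = 0.0182). Lipa, whose enzyme works in the lysosome and not at the droplet surface, was at 23.7, 24.3, 25.1, 31.5 and 34.0 TPM with PBS and 28.0, 34.9, 35.0, 41.8 and 43.7 TPM with leptin in females. Its log2 fold change of 0.37 ± 0.094 (SE, adjusted p = 0.0335) was below the fold threshold, and that of males was 0.32 (adjusted p = 0.0680).

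**Figure D2:**
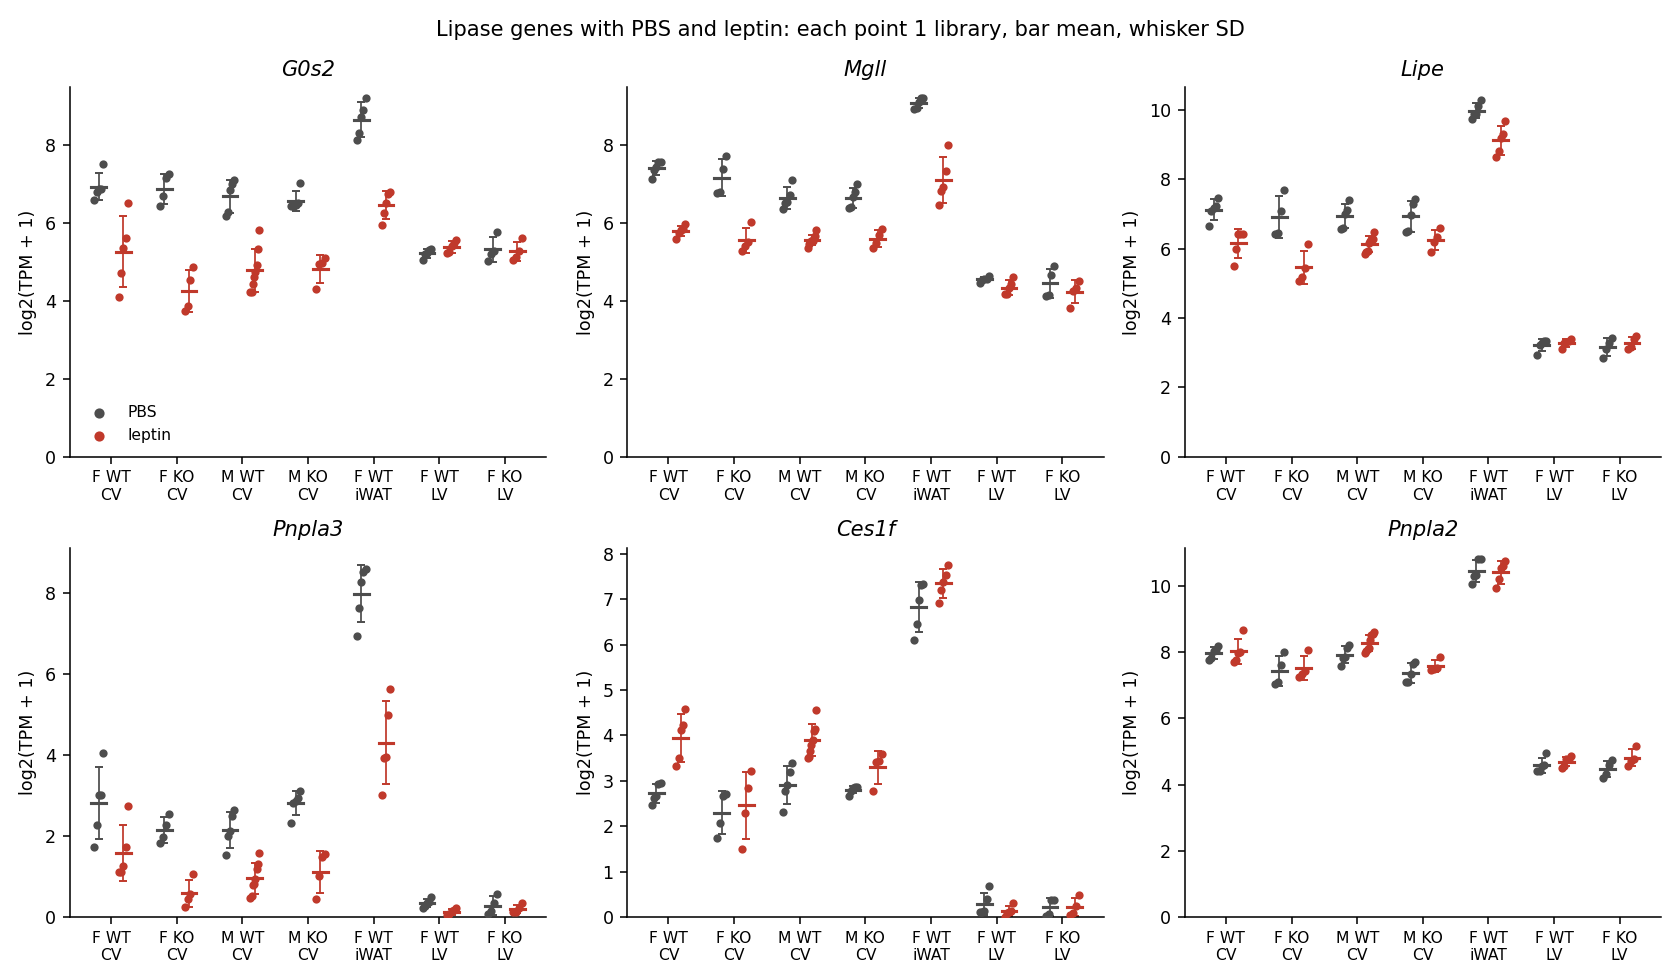
Level of G0s2, Mgll, Lipe, Pnpla3, Ces1f and Pnpla2 as log2(TPM + 1) with PBS and with leptin in 7 sets of mice (F female, M male, KO cKO), with 1 point for each library, a bar at the mean and a whisker of 1 SD. The leptin points of Mgll lie below all PBS points in each CV and iWAT set, and those of Pnpla2 overlap the PBS points in all 7 sets.

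The response to leptin was also compared between the sexes, and no member or other gene was called (0%). At an unadjusted p below 0.05 there were 1130 genes, among them Mgll (male minus female 0.45, adjusted p = 0.560), and DESeq2 called 28 genes, none of them a member. Each member called in WT CV kept its direction among mice of the 100s alone and of the 600s alone, by mouse number. These comparisons of 2 or 3 mice with PBS and 2 to 5 with leptin were chosen after the data were seen. The differences of mean log2(TPM + 1) for G0s2 in females were -1.45 and -1.70, and they were -1.89 and -1.92 in males. Those of Mgll in females were -1.66 and -1.54, and they were -1.05 and -1.13 in males. In females, Lipe was at -1.33 and -0.59 and Ces1f at 0.83 and 1.37.

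In cKO CV, which lacks ATGL in its marrow adipocytes with either treatment, G0s2 was the member called in each sex. Of all genes tested, 0.0269% were called in females and 0.188% in males, and 0.101% were lower in males. G0s2 was at 85.3, 101, 141 and 151 TPM with PBS and 12.4, 13.5, 22.1 and 28.3 TPM with leptin in cKO females. In cKO males it was at 84.9, 85.4, 86.7, 90.4 and 129 TPM with PBS and 18.6, 29.6, 30.2 and 33.3 TPM with leptin. The groups were well apart in both sexes, at log2 fold changes of -2.56 ± 0.26 (SE, adjusted p = 0.0160) in females and -1.71 ± 0.16 (SE, adjusted p = 0.00215) in males. The female call was lost when leptin replicate 3 or 4 or PBS replicate 3 or 4 was left out, at adjusted p-values of 0.0544 to 0.0860.

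Some members separated the treatments in cKO CV without passing the test. Counting G0s2, the TPM of PBS and leptin mice did not overlap for 5 members in females and 3 in males, where this held for 5.02% and 2.72% of all genes. Mgll was at 108, 111, 165.8 and 210.2 TPM with PBS and 38.2, 41.3, 44.4 and 64.1 TPM with leptin in females, at a log2 fold change of -1.57 ± 0.22 (SE, adjusted p = 0.0757). Pnpla3 was at 2.54, 2.92, 3.86 and 4.87 TPM with PBS and 0.20, 0.36, 0.50 and 1.09 TPM with leptin, at -2.71 ± 0.41 (SE, adjusted p = 0.0757). In males the log2 fold change was -1.05 ± 0.20 (SE, adjusted p = 0.0700) for Mgll and -2.25 ± 0.39 (SE, adjusted p = 0.0505) for Pnpla3. Lipe was at -1.40 (adjusted p = 0.161) in females and -0.72 (adjusted p = 0.399) in males, Ces1f at 0.43 (adjusted p = 0.735) and 0.63 (adjusted p = 0.125), and Pnpla2 at 0.19 (adjusted p = 0.801) and 0.21 (adjusted p = 0.821). Lipa, the fifth member without overlap in females, was at 0.36 (adjusted p = 0.281), and at 0.15 (adjusted p = 0.676) in males. Abhd5, Hilpda and Ces1d were at -0.06, 0.15 and -0.01 in females and at -0.01, -0.05 and -0.34 in males, with adjusted p-values of 0.629 or more. These counts depended on the tool, since DESeq2 called 4 members in each sex, and 1 fit of all CV groups called 4 in females and 3 in males. Over all genes DESeq2 called 219 and 212 and the single fit 507 and 44, against 4 and 28 here. Among adipocyte markers, Plin1 had medians of 191 TPM with PBS and 33.7 TPM with leptin in cKO females and of 161.4 and 82.2 TPM in cKO males. The leptin effect itself was compared between genotypes within each sex, and no member or other gene was called (0% in both), while the unadjusted p was below 0.05 for 906 genes in females and for 393 in males, and DESeq2 called 1 and 0 genes. Only Ces1d in males had an unadjusted p below 0.05 among the members (cKO minus WT -0.94, adjusted p = 1.00).

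In iWAT of WT females, where 15.1% of all genes were called and 7.87% were lower, 4 members fell with leptin and none rose. G0s2 was at 276, 317, 421, 478 and 588 TPM with PBS and 61.0, 75.8, 90.4, 106 and 111 TPM with leptin. Mgll went from 487 to 594 TPM with PBS to 87.4, 112, 119.8, 161.8 and 258 TPM with leptin, and Lipe from 854 to 1246 TPM to 398, 450.0, 581, 634 and 825 TPM. The widest difference was that of Pnpla3, whose leptin libraries were at 7.08, 14.4, 14.6, 31.0 and 49.0 TPM and whose PBS libraries began at 121 TPM. None of the 4 overlapped between treatments, where 18.7% of all genes did not. The log2 fold changes were -2.13 ± 0.24 (SE, adjusted p = 0.000289) for G0s2, -1.80 ± 0.25 (SE, adjusted p = 0.000856) for Mgll, -0.74 ± 0.20 (SE, adjusted p = 0.0216) for Lipe and -3.59 ± 0.52 (SE, adjusted p = 0.00109) for Pnpla3. The call of Lipe was lost without leptin replicate 4 (adjusted p = 0.0558) or PBS replicate 4 (0.0534). Pnpla2 was at 974, 1172, 1496, 1550.3 and 1738 TPM with leptin, within the range with PBS but for its lowest value, and the 95% interval of its log2 fold change was -0.42 to 0.50. Ces1f was at 119.6, 146, 165.3, 183.1 and 213 TPM with leptin and overlapped PBS. Its log2 fold change was 0.57 (adjusted p = 0.119), and 0.61 with the replicate block (adjusted p = 0.0479). Abhd5, Hilpda, Ces1d and Lipa were at -0.34, 0.28, 0.08 and 0.00, with adjusted p-values of 0.175 or more. The adipocyte sum of iWAT was 71419 to 89482 TPM with PBS and 55958 to 97672 TPM with leptin. Within it, Fabp4 was at 34964 to 50245 TPM with PBS and 11072 to 27127 TPM with leptin and Plin1 at 814 to 1185 and 345 to 591 TPM, both without overlap, and the erythroid sum was 318 to 452.4 and 29 to 200 TPM. The part of these in the iWAT results was not tested.

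**Figure D3:**
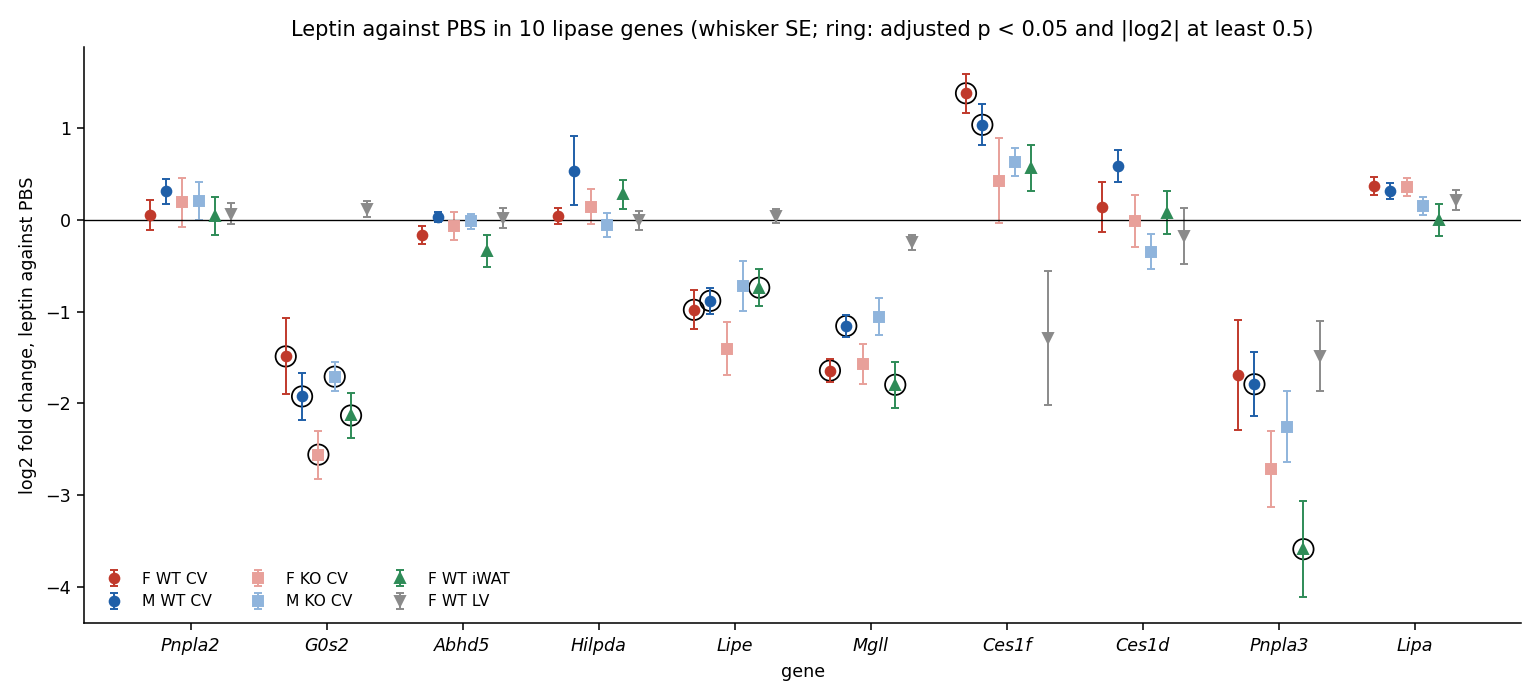
Log2 fold change of leptin against PBS for the 10 genes in 6 comparisons (F female, M male, KO cKO), with a whisker of 1 SE and a ring where the gene was called. G0s2 is ringed in all 5 fat-bearing comparisons, Mgll and Lipe in WT CV of both sexes and in iWAT, and no gene is ringed in LV.

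In LV, no member and no other gene was called with leptin in WT or cKO females (0% in both). At an unadjusted p below 0.05 there were 2183 genes in WT and 1331 in cKO females, and DESeq2 called 142 and 72 genes, no member among them. G0s2 was at 31.8, 36.1, 36.1, 38.3 and 39.5 TPM with PBS and 36.3, 36.9, 41.6, 43.3 and 46.4 TPM with leptin in WT females, at a log2 fold change of 0.12 ± 0.088 (SE). Its groups overlapped, and the 95% interval was -0.07 to 0.31. Mgll was at 17.0, 17.1, 19.0, 20.6 and 23.5 TPM and Lipe at 7.60, 8.63, 8.97, 9.12 and 9.52 TPM with leptin, both overlapping the PBS values. Pnpla3 did not overlap between treatments in WT females, as 1.99% of all genes did not. Its levels of 0.18 to 0.41 TPM with PBS and 0.04 to 0.17 TPM with leptin rest on 22 to 55 and 4 to 20 counts per library, a log2 fold change of -1.48 (adjusted p = 0.130). In cKO females, Ces1d had levels of 1.74, 2.54, 6.70 and 6.79 TPM with PBS and 1.41, 2.05, 4.07 and 4.50 TPM with leptin, which overlapped, at -0.72 (adjusted p = 0.696).

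The response to leptin was compared between sites of the same WT females. Between LV and CV, where 2.53% of all genes differed, 0.558% by a higher and 1.97% by a lower value in LV, 3 members differed. Mgll differed by 1.37 ± 0.16 (SE, adjusted p = 0.000163) and Lipe by 1.00 ± 0.24 (SE, adjusted p = 0.0244) on the log2 scale, LV minus CV, and both falls had been called in CV and not in LV. The difference of Lipe lost its call without CV PBS replicate 2 (adjusted p = 0.0532). Ces1f differed by -2.69 ± 0.71 (SE, adjusted p = 0.0401), but its LV libraries held 5 to 33 counts with PBS and 0 to 14 with leptin, 10 of 20 fits that left out 1 library lost the call, and the fit with the mouse as a block gave an adjusted p of 0.0684. G0s2 was just short of the threshold, at 1.58 ± 0.45 (SE, adjusted p = 0.0561), and was called with that block (1.79, adjusted p = 0.0389). It was also called by DESeq2 (adjusted p = 0.0292) and by limma on log2(TPM + 1) (adjusted p = 0.0184) and log2(TPM + 0.1) (adjusted p = 0.0249). Between iWAT and CV, where 11.3% of all genes differed, no member was called. The largest differences were those of Pnpla3, iWAT minus CV, at -1.93 (adjusted p = 0.124) and Ces1f at -0.85 (adjusted p = 0.115). With the mouse as a block both were called, at -2.06 (adjusted p = 0.00467) and -0.76 (adjusted p = 0.0390). The unblocked intervals were -1.76 to 0.40 for G0s2, -0.81 to 0.43 for Mgll and -0.45 to 0.86 for Lipe.

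The ratio of G0s2 to Pnpla2 TPM was taken in each library, as the inhibitor's RNA beside that of its target. It is given here as the median with the lowest and highest library. In WT CV it was 0.439 (0.406 to 0.676) with PBS and 0.159 (0.0401 to 0.355) with leptin in females, and 0.403 (0.334 to 0.602) and 0.0725 (0.0486 to 0.196) in males. Marrow adipocytes of cKO mice lack Pnpla2, so the ratio in cKO CV does not describe those cells. There it was 0.688 (0.590 to 0.744) and 0.109 (0.0510 to 0.177) in females and 0.529 (0.408 to 0.951) and 0.150 (0.103 to 0.187) in males. In iWAT it was 0.268 (0.153 to 0.552) and 0.0627 (0.0507 to 0.0902). The leptin libraries lay below the PBS libraries in each of these 5 sets. In LV the ratio was above 1 in every library, at 1.61 (1.26 to 1.76) and 1.76 (1.30 to 1.98) in WT and 1.84 (1.23 to 2.79) and 1.38 (1.08 to 1.81) in cKO females, and the treatments overlapped. In these WT LV libraries with PBS the 7 neutrophil markers summed to 147940 to 179166 TPM, beside 2162 to 11448 TPM in CV. CV held skeletal muscle RNA as well, as given above. The part of other cells in the ratio was not tested at any site. The ratios are a description, with no test.

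**Figure D4:**
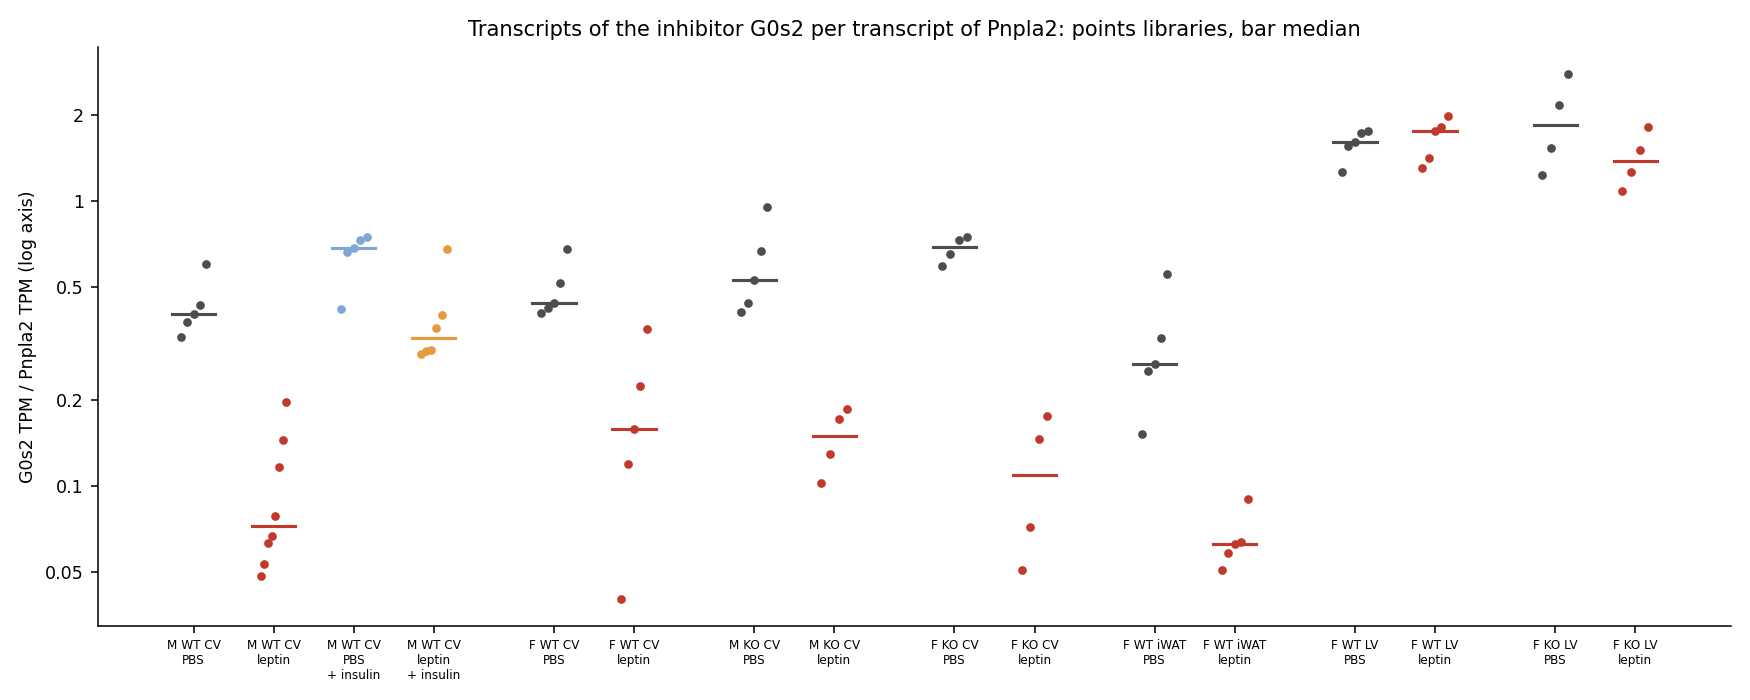
Ratio of G0s2 TPM to Pnpla2 TPM on a log axis in the 16 groups, with 1 point for each library and a bar at the median. Without insulin, the leptin points of CV and iWAT lie below the PBS points of the same site, sex and genotype, those with insulin overlap, those of WT males with leptin and insulin lie above those with leptin alone, and all LV points lie above 1.

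Insulin was given to WT males alone, and all 11 mice with insulin carry numbers of the 300s and 400s, which no other mouse does, so the insulin and the mouse series cannot be told apart. Their age may differ as well, as given above, and its part was not tested. The comparisons below share groups, and come from 1 fit of the 4 male WT groups. With leptin and insulin against leptin, G0s2 was the only member called, and it was higher, where 0.363% of all genes were called and 0.141% were higher. G0s2 was at 67.1 to 195 TPM with a median of 94.5 TPM with both agents, above all 8 mice with leptin alone, a separation seen in 0.229% of all genes, at a log2 fold change of 1.93 ± 0.24 (SE, adjusted p = 0.000460). With PBS and insulin it was at 119, 149.7, 168.7, 188.98 and 202 TPM. The 95% interval of its difference between both agents and PBS alone was -0.54 to 0.55 (adjusted p = 0.999), which includes changes of about the size of the call threshold in either direction. In the ratio to Pnpla2, the median was 0.329 (0.291 to 0.675) with both agents and 0.685 (0.418 to 0.746) with PBS and insulin.

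Mgll and Ces1f stood otherwise in the insulin groups. Mgll was at 39.9 to 100.4 TPM with a median of 55.9 TPM with leptin and insulin, at 104, 105, 109, 118 and 143 TPM with PBS and insulin, and its log2 fold change against leptin alone was 0.39 (adjusted p = 0.172). The 2 insulin groups did not overlap, as 2.95% of all genes did not, and Mgll was the member called between them, at -0.87 ± 0.16 (SE, adjusted p = 0.0141), where 0.558% of all genes were called and 0.417% were lower. That call was lost without PBS with insulin replicate 2 (adjusted p = 0.0511). It was also the member called between leptin with insulin and PBS, at -0.76 ± 0.16 (SE, adjusted p = 0.0174), where 1.1% of all genes were called and 0.706% were lower. Here the groups overlapped, and the call was lost without leptin with insulin replicate 6 (adjusted p = 0.0508) or PBS replicate 5 (0.0511). Ces1f was at 6.06 to 26.1 TPM with a median of 11.5 TPM with both agents and 7.04, 7.56, 8.12, 8.53 and 9.60 TPM with PBS and insulin. It differed from leptin alone by -0.10 (adjusted p = 0.872) and from PBS with insulin by 0.77 (adjusted p = 0.147). Against PBS alone it was at 0.94 (adjusted p = 0.0650), and DESeq2 called that difference (adjusted p = 0.0148). Pnpla3 was at 0.88 to 5.41 TPM with a median of 2.88 TPM with both agents and was just short of the threshold against leptin alone, at 1.52 ± 0.37 (SE, adjusted p = 0.0523), and DESeq2 called it (adjusted p = 0.0137). Lipe was at 43.2 to 131 TPM with a median of 87.7 TPM with both agents and 123, 128, 130.3, 146 and 184.6 TPM with PBS and insulin, which gave -0.67 (adjusted p = 0.0850). Pnpla2 was at 168.8 to 399 TPM with a median of 289 TPM with both agents and 206, 246, 253, 284 and 305 TPM with PBS and insulin. With both agents, G0s2, Pnpla3, Mgll, Lipe, Ces1f and Pnpla2 each spanned more in TPM than in the group with leptin alone. For G0s2 the mean was higher too, at 109.3 TPM (SD 45.3) with both agents and 28.5 TPM (SD 12.8) with leptin alone.

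Between PBS with insulin and PBS, no gene was called (0%), with 976 genes at an unadjusted p below 0.05 and 3 called by DESeq2. G0s2 was at 0.56 ± 0.27 (SE, adjusted p = 0.756) in that comparison. Abhd5, Hilpda, Ces1d and Lipa were not called in any insulin comparison, and their smallest adjusted p was 0.0673. The difference of the leptin effect with and without insulin was itself tested, and no gene was called (0%), with 1385 genes at an unadjusted p below 0.05 and 13 called by DESeq2, no member among them. G0s2 had the smallest p of the members there, at 1.37 ± 0.37 (SE, adjusted p = 0.504). The adipocyte sum was 4527 to 11160 TPM with leptin and insulin and 7902 to 11723 TPM with PBS and insulin, beside the values without insulin given above. Its part in these results was not tested.

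**Figure D5:**
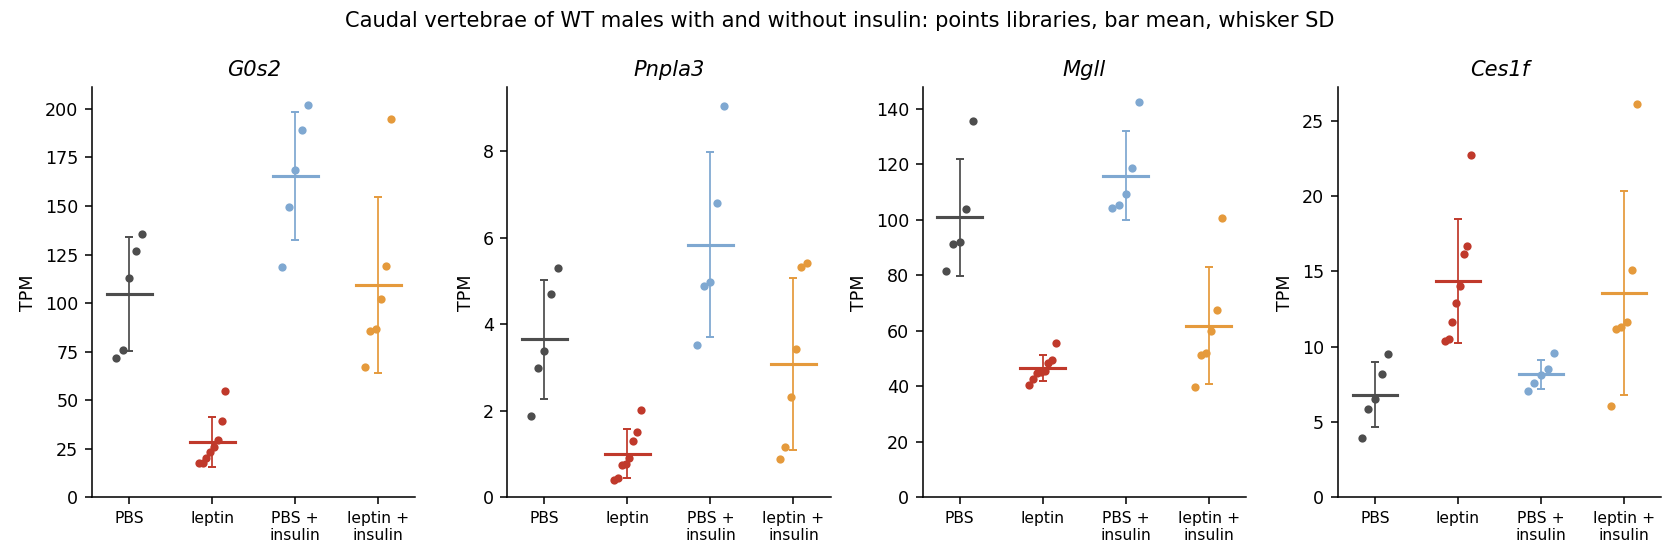
Level of G0s2, Pnpla3, Mgll and Ces1f in TPM in CV of WT males with PBS (5), leptin (8), PBS and insulin (5) and leptin and insulin (6), with 1 point for each library, a bar at the mean and a whisker of 1 SD. All G0s2 points with leptin and insulin, from 67.1 TPM, lie above those with leptin alone, which reach 54.9 TPM, and the Mgll points with leptin and insulin lie below those with PBS and insulin.

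Genes around the lipases were followed in 4 lists. Beside their counts, 2.78% of all genes were higher and 2.25% lower with leptin in female WT CV, 0.834% and 0.914% in male WT CV, and 7.24% and 7.87% in iWAT. Of 36 other lipid hydrolases, 21 were tested, and 1 rose and 1 fell in WT CV of each sex. These were Lipg, which encodes endothelial lipase (log2 fold changes of 1.34 in female and 1.75 in male CV), and Plaat3, which encodes a phospholipase abundant in fat (-0.92 and -0.77). The median of the list was 0.06 and 0.02. In iWAT 3 rose, Pnpla7 by 0.86, Nceh1 by 0.66 and Ddhd1 by 0.52, and Lpl, which encodes lipoprotein lipase, fell (-0.73), with a median of 0.19 beside 0.07 over all genes.

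All 21 genes of the cAMP and protein kinase A arm were tested. In female WT CV 1 rose (Adcy3, an adenylyl cyclase, 0.83) and 2 fell (Adora1, the adenosine receptor that restrains cAMP, -1.53, and Pde3b, a phosphodiesterase that insulin activates, -0.57). In male WT CV Adora1 fell, at -1.73. In iWAT 4 rose and 4 fell, among them Pde4d (2.50), Adora1 (-2.12) and Gnai1 (-1.76). The medians were -0.11, 0.01 and -0.10. Adora1 was also the gene of this list called with leptin and insulin against leptin, where it was higher (0.79). With both agents it was still lower than with PBS (-0.94) and than with PBS and insulin (-0.94).

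Of the genes of the lipid droplet and of product handling, all 16 were tested, and 6 fell and 0 rose in female WT CV, 5 fell and 1 rose in male WT CV, and 12 fell and 0 rose in iWAT, with medians of -0.41, -0.31 and -0.97. Plin1 (-1.37 in females and -1.23 in males) and Plin4 (-1.47 and -1.12), which encode droplet coat proteins, and Sncg, which encodes gamma-synuclein (-1.21 and -0.90), were among those that fell, and Cidea, which encodes a droplet fusion protein, rose in males (1.08). Plin1 also stands in the adipocyte marker list. In iWAT the largest falls were those of Sncg (-3.49), Mmd (-2.19), Fabp5 (-2.07) and Cav1 (-1.83).

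Of 17 genes for transcription factors and insulin signalling proteins chosen as possible regulators of the 10 genes, all tested, 1 fell in female WT CV (Mlxipl, which encodes the glucose-responsive factor ChREBP, -0.83) and 1 rose in male WT CV (Irf4, 1.41), with medians of -0.08 and 0.14. In iWAT 4 rose and 2 fell, with Irf4, a factor induced by fasting in fat, at 3.70, the insulin receptor substrates Irs1 and Irs2 at 1.16 and 0.90, and Cebpa at -0.88. With leptin and insulin against leptin, Irf4 was lower (-1.40) and Cidea of the droplet list was lower (-0.95). In cKO CV no gene of the 4 lists was called in females, and Lipg (1.66) rose in males.

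The genes with the pattern most like a member were found over the 16 group means of log2(TPM + 1), centred for each gene, among the 10793 genes that averaged 5 TPM or more. Likeness is the mean absolute log2 difference, which is smaller for more alike patterns, and groups that come from the same mice are not independent. For G0s2 the nearest were Crtac1 (0.38), Abcd2 (0.52) and Cib2 (0.55), with a median of 0.90 over all genes compared. For Pnpla2 they were Acacb (0.19), Mrap (0.22) and Car5b (0.24), with a median of 1.14. For Ces1f they were Ces1d (0.30), Slc27a1 (0.34) and Pnpla2 (0.41), with a median of 1.36.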

How the data were processed

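RNA enriched by oligo dT and primed with random N6 primers was sequenced on DNBSEQ with paired reads of 100 bases. Per the labels and the study's methods, reads were filtered with SOAPnuke and aligned with HISAT and Bowtie2 to GRCm38.p6, with GRCm39 also listed in the submitters' processing notes. The counting tool and its use of strand are not given in the sources used here. The authors deposited a table of estimated counts for each gene and library, and a table of TPM, in which counts are scaled by gene length and by library size. Of the estimated counts, 51 values in 6 genes were not whole and were rounded. Tables held 74693 rows, of which 39063 carry a numeric gene identifier, and the 14873 of these that averaged 0.4 TPM or more over the 79 libraries were tested. Library totals were 16100377 to 29757254 counts, and a count's precision covers counting error only.

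Groups came from the labels. Each comparison was fitted with edgeR 4.0.16 (quasi-likelihood, TMM) in R 4.3.3, with p-values adjusted by Benjamini-Hochberg over all genes tested and calls where the adjusted p was below 0.05 and the log2 fold change was 0.5 or more in size. Levels are TPM. Alternatives were DESeq2 1.42.0, its size factors (RLE in edgeR), no filter, limma 3.58.1 on log2(TPM + 1) and log2(TPM + 0.1), no fold threshold, a replicate block, a term for the mouse-number series, a single fit over the CV groups, and the omission of each library. The scripts were tested on simulated data with known changes. The lowest chi-square per gene between any of 163 pairs of libraries of 1 group was 10.96, so no pair looked like the same library. CV, LV and iWAT libraries of 1 number come from the same mouse by their labels, and their deviations from group means correlated at -0.01 to 0.24 (CV with LV) and -0.02 to 0.30 (CV with iWAT).

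All 10 members were tested in each comparison, and values are given for those called and most of the others. From each list of other genes, up to 4 called genes with the largest absolute log2 fold change are named, except for 1 gene whose result is not reported here. The members and lists were chosen with earlier results of these data known. Promoter windows and gene positions come from RefSeq on GRCm38.p6, and exon counts and overlaps from GENCODE M21.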

Additional observations from a re-analysis of the deposited data

Results flagged for a closer look

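In 9 of 160 sets of 1 gene in 1 group, 1 library stood apart from the others by Dixon's criterion, which chance alone gives in about 1 of 20 groups. For Pnpla2 these were leptin replicate 3 of WT female CV (405.16 TPM, the others 209.3 to 253.67), PBS replicate 5 of WT female LV (30.38 TPM, the others 20.45 to 22.91) and leptin replicate 4 of cKO male CV (229.03 TPM, the others 176.07 to 181.01). For G0s2 they were PBS replicate 2 of WT female CV (180.07 TPM, the others 94.97 to 116.64) and PBS replicate 1 of cKO male CV (129.34 TPM, the others 84.94 to 90.43). Pnpla3 stood apart in leptin replicate 2 of WT female CV (5.66 TPM, the others 1.17 to 2.32), and Hilpda in leptin replicate 8 of WT male CV (83.15 TPM, the others 15.08 to 35.34). Lipa stood apart in leptin replicate 3 of WT female iWAT (61.96 TPM, the others 33.53 to 40.3) and PBS replicate 2 of cKO female LV (14.41 TPM, the others 19.1 to 19.85).

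The effect of leptin differed between LV and CV of WT females for 3 members by the test of the difference itself. On the log2 scale, LV minus CV, it was 0.995 for Lipe, 1.37 for Mgll and -2.69 for Ces1f, where 2.53% of all genes differed. The call of Ces1f was lost in 10 of 20 fits that left out 1 library and with the mouse as a block (adjusted p = 0.0684). That of Lipe was lost without CV PBS replicate 2 (adjusted p = 0.0532). G0s2 was not called in the main fit (1.58, adjusted p = 0.0561), which does not use that the sites share mice. It was called in 4 of 6 alternatives, among them the mouse as a block (1.79, adjusted p = 0.0389).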

How the results depend on the processing

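In WT male CV, 5 members were called, and 2 with the replicate block. In cKO CV the main count was 1 in each sex. In females it was 4 by DESeq2 and 4 in 1 fit of all CV groups. In males it was 4 by DESeq2, 2 with no filter, 3 with limma on log2(TPM + 1), 2 on log2(TPM + 0.1) and 3 in 1 fit of all CV groups. Over all genes these settings called 212, 31, 30, 23 and 44 in males, against 28 in the main fit. DESeq2 called 2 members in place of 1 for leptin with insulin against leptin, against PBS with insulin and against PBS. Over all genes it called 174, 230 and 269 there, against 54, 83 and 164 in the main fit. For the difference between iWAT and CV, limma on log2(TPM + 1) called 1 and the replicate block 2, in place of 0. Over all genes these 2 settings called 1660 and 1718, against 1683 in the main fit. Between CV and LV, Abhd5, Hilpda and Lipa reversed on the TPM scale, to 0.36, 0.94 and 0.66 on log2(TPM + 1) and to 0.37, 1.01 and 0.68 on log2(TPM + 0.1), where the median of all genes was 0.87 and 1.08. The cause of the other changes was not tested.

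When 1 library was left out, members called ranged from 2 to 5 in WT female CV, 3 to 5 in WT male CV, 0 to 3 in cKO female CV, 1 to 2 in cKO male CV and 3 to 4 in iWAT. They ranged from 7 to 8 for CV against LV, 9 to 9 for CV against iWAT, 1 to 2 for leptin with insulin against leptin, 0 to 2 against PBS with insulin and 0 to 2 against PBS. They ranged from 0 to 1 for iWAT against CV and 1 to 4 for LV against CV in the response to leptin, and were 0 in the remaining comparisons.

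Among all genes, 4 were called in cKO female CV, against 219 by DESeq2, 507 in 1 fit of all CV groups and 13 with the replicate block. In cKO male CV 28 were called, against 212 by DESeq2. In WT male CV 260 were called, against 465 by DESeq2, 416 with the series covariate and 65 with the replicate block. Same-numbered PBS and leptin mice are different animals, and most such pairs of WT females also share a mouse-number series. Their deviations from group means correlated above 0.1 in 3 of 5 pairs in WT female CV (median 0.22), iWAT (median 0.31) and LV (median 0.25). In WT male CV this held for 1 of 5 pairs (median -0.20). With the mouse as a block, no member count changed for CV against LV or iWAT.

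Pnpla3 and Ces1f in LV rest on at most 67 counts per library. Within the mouse series of WT mice, an alternative chosen after the data were seen, no member called with leptin in CV or iWAT changed sign. The cKO mice were not compared within a series. Among cKO males, some leptin mice but no PBS mouse had numbers in the 600s.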
